A study of Mus musculus with 8 samples.

Results

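Klf6 ChIP-seq peaks of cultured oligodendrocyte progenitors (OLP) were described over the whole genome and across genes. The members are all peaks of the 2 OLP Klf6 lists, which the labels call OPC_A_Klf6 and OPC_B_Klf6 and which are called OLP A and OLP B here. OLP A held 12451 peaks and OLP B 7827, together 20278 of the 36280 peaks in the 4 Klf6 lists of the series. OLP were isolated from the cortex of P6-P7 C57BL/6 mice by panning on Pdgfra and were grown in PDGF-AA at 10 ng/ml and bFGF at 20 ng/ml without T3. The comparison groups are the input of each OLP replicate, against which its peaks were called, and 2 Klf6 samples of immature oligodendrocytes (iOL A and iOL B), grown likewise and then given T3 at 40 ng/ml for 18 h. The labels give no altered allele for any sample. The rabbit polyclonal antibody SC-7158X was used in all 4 ChIP samples. The methods do not say how many animals went into a culture. The 4 inputs are not analysed here, and the control without antibody that the methods describe is not among the 8 samples. A peak list holds no marker expression, so the cell type label could not be checked against markers.

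Klf6 is a Krüppel-like zinc-finger transcription factor. Proteins of this family bind GC-rich sites and CACCC elements through their zinc fingers, often near the start of a gene. OLP divide in response to PDGF and give rise to the cells that wrap axons in myelin. In ChIP-seq, fragments bound by the protein are recovered with an antibody and sequenced, and a peak is a place where fragments (tags) pile up above the input chromatin. Much of the mouse genome consists of sequence present in many copies, and a tag from such a copy fits several places.

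The sequences of the most enriched peaks are shown first, because the 10 highest fell into 2 kinds of sequence. All sequences are the plus strand of mm9. A peak of both replicates is an OLP A peak with an OLP B peak at most 500 bp away, and fold enrichment is the ratio of ChIP tags to those that the peak caller expected from the input. Of the 10 peaks with the largest fold enrichment in OLP A that had an OLP B peak within 500 bp, 4 were built around an array of the 5-base unit CCATT or its reverse complement. They lay in an intron of Dpp9 (chr17:56339353-56339522), 22751 bp upstream of Gm17644 (chr1:12634843-12634962), 8725 bp upstream of Gm13580 (chr2:60240808-60240954) and between genes at chr6:132413732-132413831. Capitals mark runs of at least 3 units.
Dpp9 intron peak: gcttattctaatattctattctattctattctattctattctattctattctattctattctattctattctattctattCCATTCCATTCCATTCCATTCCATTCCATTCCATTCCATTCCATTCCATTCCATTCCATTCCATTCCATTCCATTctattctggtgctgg
Gm17644 upstream peak: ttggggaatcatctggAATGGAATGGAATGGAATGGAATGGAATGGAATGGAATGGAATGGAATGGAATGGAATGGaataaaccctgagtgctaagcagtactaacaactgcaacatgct
Gm13580 upstream peak: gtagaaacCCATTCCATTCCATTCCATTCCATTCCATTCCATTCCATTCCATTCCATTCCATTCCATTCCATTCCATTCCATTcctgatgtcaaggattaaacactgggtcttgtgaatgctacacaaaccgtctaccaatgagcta
chromosome 6 peak: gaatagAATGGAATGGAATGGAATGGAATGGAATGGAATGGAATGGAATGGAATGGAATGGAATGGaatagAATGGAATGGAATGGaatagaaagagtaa

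The other 6 of these 10 peaks belonged to 1 long interspersed element that is described below. Of these, 2 are shown, from an intron of Vstm2a (chr11:16231383-16231480) and from a place between genes (chr7:126196578-126196715). Capitals mark 32-base stretches that recur among peaks of both replicates and have 2431 or more copies each in the genome.
Vstm2a intron peak: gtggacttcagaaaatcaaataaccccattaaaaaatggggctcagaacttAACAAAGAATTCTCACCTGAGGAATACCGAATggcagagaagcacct
chromosome 7 peak: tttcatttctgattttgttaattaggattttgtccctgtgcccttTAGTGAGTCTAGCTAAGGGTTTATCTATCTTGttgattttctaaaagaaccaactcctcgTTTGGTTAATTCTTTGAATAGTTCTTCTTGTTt

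The highest peak of each replicate was called in all 4 ChIP samples. The Dpp9 intron peak, with the highest fold in OLP A, had 48 tags and 114.2-fold enrichment in OLP A, 36 tags and 37.2-fold in OLP B, 29 tags and 67-fold in iOL A, and 17 tags and 5.15-fold in iOL B. The Vstm2a intron peak, which had the highest fold of OLP B, had 34 tags and 82.7-fold in OLP A, 40 tags and 45-fold in OLP B, 38 tags and 79.8-fold in iOL A, and 44 tags and 26.3-fold in iOL B. Tags of the Vstm2a peak thus stayed within 34 to 44, while those of the Dpp9 peak were lowest in iOL B. Both lay far from a listed transcription start site (TSS), at 16128 bp upstream of D17Wsu104e for the Dpp9 peak and with no TSS listed for the Vstm2a peak.

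Peaks held few tags. OLP A peaks had a median of 8 tags (range 7 to 2375), a median length of 154 bp and a median fold enrichment of 14.6. OLP B peaks had a median of 12 tags (range 9 to 1873), a median length of 147 bp and a median fold enrichment of 9.95. In OLP A, 63.8% of peaks had under 10 tags, against 8.57% in OLP B. The lists resembled each other more by replicate letter than by stage in this respect, since the smallest peak had 7 tags in iOL A and 10 in iOL B. Tags in peaks summed to 152149 in OLP A and 126680 in OLP B. The number of aligned reads is not given in the sources used here, and the tag counts give the only measure of depth.

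Over all peaks, 3378 of 12451 OLP A peaks lay within 500 bp of an OLP B peak (27.1%, 95% Wilson interval 26.4 to 27.9). In the other direction, 3288 of 7827 OLP B peaks lay within 500 bp of an OLP A peak (42%, interval 40.9 to 43.1). Bases within 500 bp of an OLP B peak made up 0.349% of the genome, and those within 500 bp of an OLP A peak 0.55%. Peaks of both replicates were placed closely. Their summits were a median of 5 bp apart, 2871 of the 3378 pairs (85%) had summits within 20 bp, and 3102 (91.8%) shared at least 1 base. The intervals cover counting error only, since peaks of 1 list come from 1 library. With at least 10 tags in both lists the shares were 45.2% for OLP A and 28.6% for OLP B, so that the order turned, and without repeated peaks (defined below) they were 2.94% and 2.11%.

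Peaks of both replicates differed in height between the replicates. OLP B had more tags in 2512 of the 3378 pairs (74.4%), OLP A in 651 (19.3%), and 215 were equal. The fold enrichment was higher in OLP A in 3039 pairs (90%), with a median ratio of 1.7. Across these pairs, tags of OLP A and OLP B had a Spearman rho of 0.414 and fold enrichments one of 0.403, given as a description across sites that share their libraries.

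**Figure D1:**
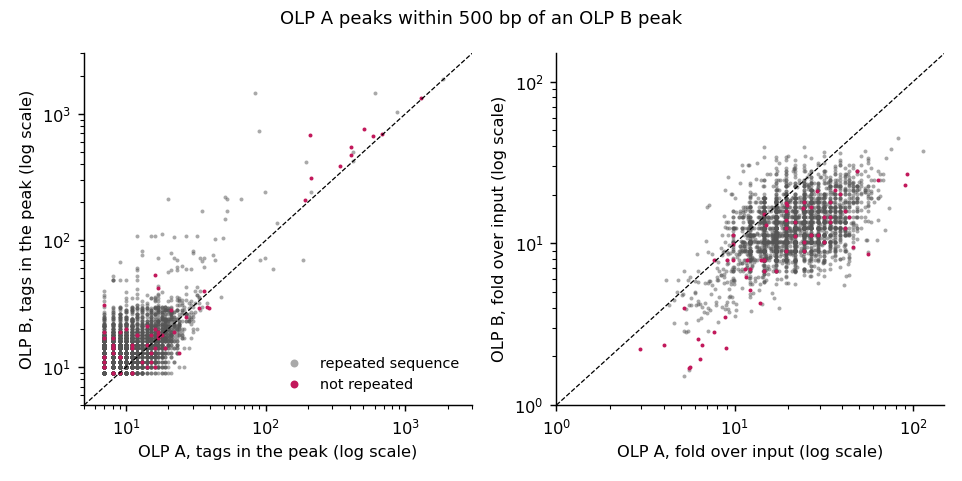
Tags (left) and fold enrichment over input (right) of the 3378 OLP A peaks within 500 bp of an OLP B peak, with OLP A on the horizontal and OLP B on the vertical axis, both on log scales; the dashed line marks equal values and colours separate repeated from other sequence. Most points lie above the line for tags (2512 pairs) and below it for fold (3039 pairs).

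The share of peaks found again rose with the score of the peak caller, which is -10 times log10 of its p-value. In OLP A, 1207 of 1708 peaks with a score of at least 100 lay near an OLP B peak (70.7%, interval 68.5 to 72.8), against 359 of 4192 with a score under 50 (8.56%, interval 7.75 to 9.45). The odds ratio was 25.7 (Fisher's exact test, two-sided, Benjamini-Hochberg adjusted over 10 tests, p at or under 1e-300, the smallest value written). In OLP B, the shares were 653 of 745 (87.7%) and 854 of 3787 (22.6%), an odds ratio of 24.4 (Fisher's exact test, adjusted p = 1.7e-254). The OLP B comparison reuses the same pairs of peaks, so it is a repeat and not independent. These p-values measure the spread over peaks within a list and not over animals. Each class between these limits lay between the neighbouring classes in both replicates, from 17.2% at scores of 50 to 60 to 83.3% at 150 and over in OLP A, and from 41.6% to 91.6% in OLP B.

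**Figure D2:**
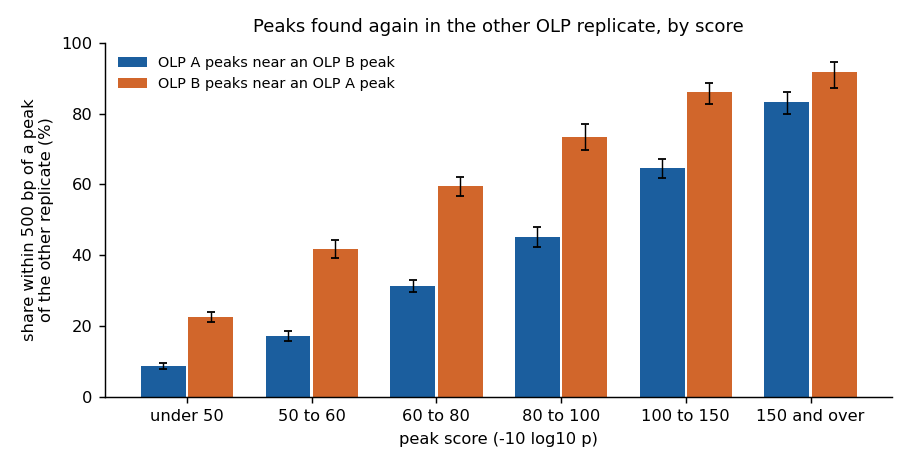
Share of OLP A peaks near an OLP B peak (blue) and of OLP B peaks near an OLP A peak (orange) in 6 classes of peak score; error bars are 95% Wilson intervals. The shares rise from 8.56% to 83.3% in OLP A and from 22.6% to 91.6% in OLP B.

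In OLP A, the share found again also rose with fold enrichment, and it did not rise with tags at the top of their range. Of the 73 OLP A peaks above 50-fold, 71 lay near an OLP B peak (97.3%). Among OLP A peaks with 16 to 20 tags the share was 69.7%, whereas among the 175 peaks with 31 to 100 tags it was 22.3%, and these had a median fold enrichment of only 5.7. The 72 OLP A peaks with more than 100 tags held 16.7% of all tags in peaks, had a median fold of 5.51, and 20 of them (27.8%) lay near an OLP B peak. In OLP B the share did not rise with fold throughout, since it was 43% of 135 peaks under 5-fold and 19.4% of 3797 peaks at 5 to 10-fold, before it reached 97.4% of 39 peaks at 30-fold and over.

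Most OLP peaks lay in sequence that occurs elsewhere in the genome. Repeated peaks are those in which over 50% of the 32-base stretches have another copy on either strand. By this measure 11023 OLP A peaks (88.5%) and 5835 OLP B peaks (74.5%) were repeated, compared with 15.3% of 25599 stretches of 154 bases taken every 100000 bases of the genome. Single-copy peaks, in which every 32-base stretch occurs only once, made up 7.7% of OLP A (959) and 19.9% of OLP B (1559), compared with 67% of the genome stretches. Of the OLP A peaks, 34.2% had a median copy number of 1000 or more, and of the OLP B peaks 27.6%.

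Repeated peaks were found again far more often than the rest. In OLP A, 3316 of 11023 repeated peaks lay near an OLP B peak (30.1%, interval 29.2 to 30.9) against 62 of 1428 other peaks (4.34%, interval 3.4 to 5.53), an odds ratio of 9.48 (Fisher's exact test, adjusted p = 5.3e-124). In OLP B, the shares were 55% of 5835 and 3.87% of 1992, an odds ratio of 30.4 (Fisher's exact test, adjusted p at or under 1e-300). Among single-copy peaks, 6 of 959 in OLP A (0.626%) and 7 of 1559 in OLP B (0.449%) had a partner. The 959 OLP A single-copy peaks had a median of 7 tags, the fewest in that list, and none reached a score of 100. At scores of 50 to 100, 2 of 219 single-copy OLP A peaks were found again (0.913%, interval 0.251 to 3.27), against 1794 of 6166 repeated ones (29.1%, interval 28 to 30.2). At the same scores in OLP B the counts were 1 of 266 (0.376%) and 1744 of 2922 (59.7%). The way in which reads with several matches were placed is not given in the sources used here, and its part in these shares was not tested.

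**Figure D3:**
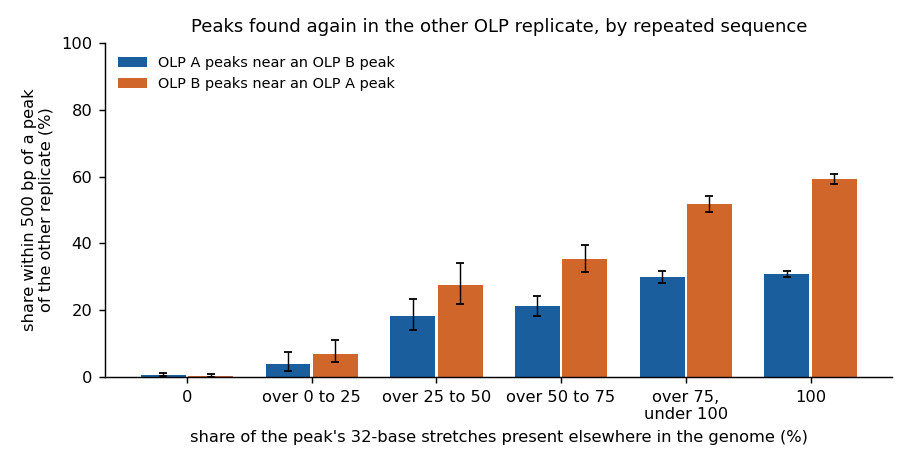
Share of OLP A peaks near an OLP B peak (blue) and of OLP B peaks near an OLP A peak (orange) by the percentage of a peak's 32-base stretches that occur elsewhere in the genome; error bars are 95% Wilson intervals. The share is 0.626% (OLP A) and 0.449% (OLP B) in single-copy peaks and reaches 30.9% and 59.3% where every stretch is repeated.

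A single interspersed element held most peaks of both replicates. The 110 stretches of 32 bases that recur most among the peaks of both replicates were listed, each chosen for peaks not yet covered and held by at least 10 of them. Together they occurred in 2253 of the 3378 peaks (66.7%). Of the 110, 107 fell into 1 fixed order along the genome, spanning 5220 bp. The first chosen, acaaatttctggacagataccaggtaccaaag, had 9336 copies in mm9 and lay within 50 bases of the summit of 67 OLP A, 44 OLP B, 61 iOL A and 50 iOL B peaks. The 107 stretches had 2431 to 28454 copies each, with a median of 11448. When a stretch lay near the first one, a median of 92.3% of its copies (range 79.1 to 95.8) were within 200 bp of its usual distance. No annotation of repeats was used, and the element is therefore given no family name.

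Copies of this element covered 4.64% of the genome and held 6948 OLP A summits (55.8%) and 4385 OLP B summits (56%). Among peaks of both replicates the element held 2800 of 3378 OLP A peaks (82.9%). Among OLP A peaks with no OLP B partner it held 4148 of 9073 (45.7%). The element was defined from the peaks of both replicates, so this difference is a description. Each stretch was held by 15 to 111 OLP A peaks and 10 to 71 OLP B peaks, which is 1.53 to 9.36 OLP A peaks and 0.73 to 5.33 OLP B peaks per 1000 genome copies. Since a stretch was listed only when peaks of both replicates held it, that every stretch held peaks was set by the choice. The density per copy had a Pearson r of 0.732 between the replicates over 107 stretches. This is a description, since the stretches were chosen from peaks of both. Both densities of a stretch are also divided by the same number of copies, which by itself ties them together.

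**Figure D4:**
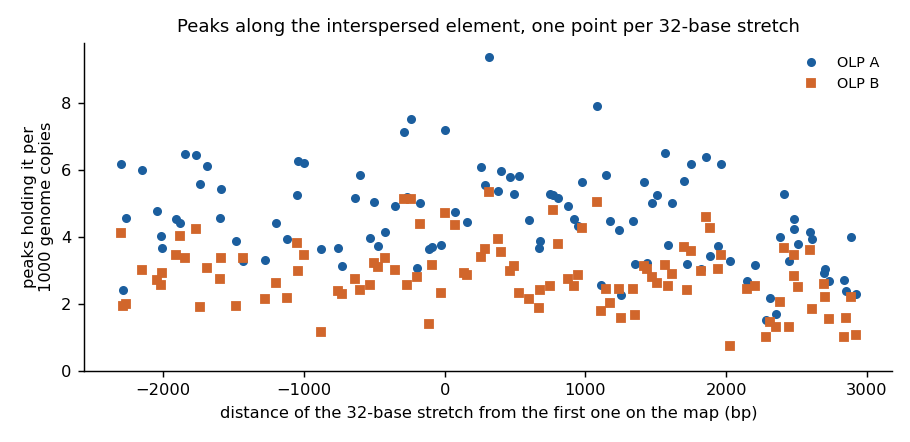
OLP A peaks (blue circles) and OLP B peaks (orange squares) that hold each of the 107 ordered 32-base stretches near the summit, per 1000 genome copies of the stretch, against its distance in bp from the first stretch. Points lie between 1.53 and 9.36 in OLP A and between 0.73 and 5.33 in OLP B over the 5220 bp.

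Some peaks of 1 replicate alone lay on the same stretches of the element as peaks of both. Of the 5 OLP B peaks of highest score with no OLP A peak within 500 bp, 3 were in the element. The highest (chr2:63450264-63450352) had 27 tags and 30.4-fold enrichment in OLP B, 13 tags in iOL B, and was not called in OLP A or iOL A. It shares a run of 26 bases with the Vstm2a intron peak. A second, 37458 bp upstream of Zfp735 (chr11:73464774-73464867), had 22 tags and 24.8-fold enrichment in OLP B, 12 tags in iOL A and 16 in iOL B. It shares 45 bases with the peak of both replicates at chr2:7520039-7520306. Both are shown beside their partners, of which the second is given for chr2:7520094-7520244 around its summit, with capitals for the longest run of bases in common.
Vstm2a intron peak, both replicates: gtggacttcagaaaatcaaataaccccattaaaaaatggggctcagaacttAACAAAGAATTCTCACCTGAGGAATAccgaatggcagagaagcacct
chromosome 2 peak, OLP B: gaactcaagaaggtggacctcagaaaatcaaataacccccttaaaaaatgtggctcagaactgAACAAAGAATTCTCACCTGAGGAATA
chromosome 2 peak, both replicates: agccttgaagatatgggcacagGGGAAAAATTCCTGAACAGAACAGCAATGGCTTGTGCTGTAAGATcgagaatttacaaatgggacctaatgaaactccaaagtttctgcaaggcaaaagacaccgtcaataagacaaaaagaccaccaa
Zfp735 upstream peak, OLP B: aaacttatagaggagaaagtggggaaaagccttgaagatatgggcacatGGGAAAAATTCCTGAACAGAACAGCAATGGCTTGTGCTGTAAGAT

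Arrays of CCATT were rare in the genome and nearly all long ones had an OLP A peak. The run CCATTCCATTCCATT, or AATGGAATGGAATGG on the other strand, occurred at 103 places. At 14 of these the run was 50 bases or longer, and 13 of the 14 (92.9%) had an OLP A peak within 100 bp, 11 an OLP B peak (78.6%), 14 an iOL A peak and 4 an iOL B peak. In OLP A, 22 peaks held the run within 100 bases of the summit, with a median fold of 38.9 against 14.6 for the other peaks. In OLP B, 15 peaks held it, with a median fold of 19.1 against 9.92, and all 15 had an OLP A peak within 500 bp. The median fold was 36 against 14.9 in iOL A, but lower than in other peaks in iOL B, at 8.18 against 10.6. Of all 103 places, whatever their length, 22 had an OLP A peak and 15 an OLP B peak. The motif was chosen after the most enriched peaks had been seen, so these counts describe them and are not a test.

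The peaks with the most tags were not the most enriched ones. The largest peak of both replicates (chr2:98506386-98507498) had 1847 tags in OLP A, 1873 in OLP B, 1841 in iOL A and 1877 in iOL B. The next (chr2:98502380-98503213) had 1301, 1319, 1301 and 1315 tags in the same order, and the peak 37619 bp upstream of Fam118b (chr9:35112685-35113182) had 684, 692, 682 and 688. The tag counts at these places were almost equal in the 4 ChIP samples, although the total tags of the lists differed. The other 2 of the 5 peaks with most tags were not so equal, with 875, 1035, 767 and 1257 tags at chr10:7232486-7235303, and with 609, 1454 and 724 tags at chrX:123302070-123306081, which was not called in iOL B. The largest peak, in an exon of Gm10800, had low fold enrichments of 5.18, 1.51, 4.1 and 1.48 in the same order of samples. At both the largest and the Fam118b peak, the sequence matched itself best at a shift of 234 bases, with 53.6% and 63.6% of bases equal. The other 3 of the 5 peaks did so at other shifts, of 58 bases at chr2:98502380-98503213 (40.6% equal), 19 bases at the chromosome 10 peak (83.4%) and 329 bases at the chromosome X peak (40.2%). Mouse major satellite DNA, which forms the heterochromatin around centromeres, has a unit of 234 bases. Whether any of the 5 peaks is satellite sequence was not tested, and another shift does not set a peak apart from it. Tags per base of peak length reached 1.66 in OLP A and 1.58 in OLP B, compared with medians of 0.0568 and 0.0826.

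The 5 OLP A peaks of highest score without an OLP B partner had many tags and low fold. They had 120 to 2375 tags and 2.81-fold to 8.47-fold enrichment. The first (chr15:74915930-74917499, 37952 bp upstream of Ly6c1) had 1077 tags in OLP A, 979 in iOL A and 1598 in iOL B and was not called in OLP B. The one with most tags (chr1:24618330-24623070, 25367 bp upstream of Col19a1) had 2375 tags in OLP A and 2409 in iOL A and was called in neither B list. The other 3 were called in iOL A as well, with tags that differed from OLP A by at most 3, and in neither B list. The 5 OLP B peaks of highest score without an OLP A partner had fewer tags, at 21 to 72. Beside the 3 in the element, they were a peak 13060 bp upstream of Parp16 with 72 tags and 11-fold enrichment, and a peak in an intron of Tex14 (chr11:87256712-87257218) with 51 tags and 11.5-fold. A list that lacks a peak shows only that it was not called there.

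Single-copy peaks called in both OLP replicates numbered 6 and were all small. They made up 0.626% of the 959 single-copy OLP A peaks (interval 0.287 to 1.36). Bases within 500 bp of an OLP B peak were 0.349% of the genome. From OLP B, 7 of 1559 had a partner (0.449%, interval 0.218 to 0.924), beside 0.55% of the genome near an OLP A peak. Both intervals include the genome's share, so recurrence at these places is not shown to exceed it. The most enriched of the 6 (chr5:83169307-83169489, between genes) had 11 tags and 14.6-fold enrichment in OLP A and 14 tags and 7.88-fold in OLP B. One lay in an intron of Tex14 (chr11:87236786-87236929, 4269 bp upstream of the listed Tex14 TSS), with 7 tags in OLP A and 31 in OLP B. Another lay in an intron of Padi4 (chr4:140329502-140329665), 565 bp downstream of its TSS, with 8 tags and 7.65-fold in OLP A and 14 tags and 7.88-fold in OLP B. Padi4 encodes an enzyme that converts arginine to citrulline in histones. None of the 6 was called in either iOL list. The first and the Padi4 peak are shown in full. The core letters CCACCC and CCGCCC, on either strand, are in neither, so both stand in lower case. The Padi4 sequence is a tandem run of similar short units that share taacaaac and differ at other bases. It counts as single-copy only because none of its whole stretches recurs exactly, so the label does not exclude diverged repeats.
chromosome 5 peak: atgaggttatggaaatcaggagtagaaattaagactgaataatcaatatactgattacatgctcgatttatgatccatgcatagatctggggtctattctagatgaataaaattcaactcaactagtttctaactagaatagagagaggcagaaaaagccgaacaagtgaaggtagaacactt
Padi4 intron peak: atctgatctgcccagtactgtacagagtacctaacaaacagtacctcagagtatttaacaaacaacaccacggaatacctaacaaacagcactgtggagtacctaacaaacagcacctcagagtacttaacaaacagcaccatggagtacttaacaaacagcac

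The core motifs of Krüppel-like factors were less common under the peaks than in the genome. CCACCC or CCGCCC, on either strand, lay within 100 bases of the summit in 595 OLP A peaks (4.78%) and 336 OLP B peaks (4.29%). Of all 201-base windows of the genome, 12.3% held one of them (10.8% CCACCC and 1.97% CCGCCC, with windows that hold both counted in each). The median GC content of the windows was 37.8% in OLP A and 36.8% in OLP B, compared with 41.8% in the genome. Peaks near an OLP B peak held a core in 141 of 3378 cases (4.17%, interval 3.55 to 4.9) and the other OLP A peaks in 454 of 9073 (5%, interval 4.57 to 5.47), a difference that missed the threshold (odds ratio 0.827, Fisher's exact test, adjusted p = 0.065). Over the whole peak in place of the window, the shares were 2.87% and 3.66% (Fisher's exact test, adjusted p = 0.035). In OLP B the shares were 4.38% and 4.23% (odds ratio 1.04, Fisher's exact test, adjusted p = 0.78).

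The core was not spread evenly over the sequence classes. In the element 2.78% of OLP A peaks held it (interval 2.42 to 3.19), and outside the element 7.31% (interval 6.65 to 8.02). Outside the element, 63 of 578 OLP A peaks with an OLP B partner held a core (10.9%, interval 8.61 to 13.7) against 339 of 4925 without one (6.88%, interval 6.21 to 7.62). In OLP B these shares were 11.7% of 555 (interval 9.3 to 14.7) and 4.88% of 2887 (interval 4.16 to 5.73). GC content moved with them, at a median of 40.3% and 38.8% in OLP A and 40.8% and 33.8% in OLP B, and its part was not tested. The split was made after the peaks had been seen and carries no test. All 4 shares stayed below the 12.3% of genome windows, although the upper bounds of the intervals for the peaks of both replicates did not.

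A peak of both replicates outside the element that held a core lay in the annotated 5S ribosomal RNA gene n-R5s88 (chr9:102030227-102030344), where 17.2% of 32-base stretches were repeated. It had 21 tags and 48.6-fold enrichment in OLP A, 28 tags and 28.2-fold in OLP B, 17 tags and 39.7-fold in iOL A, and 36 tags and 37-fold in iOL B, so it was high in all 4. Its sequence has the core in capitals.
n-R5s88 peak: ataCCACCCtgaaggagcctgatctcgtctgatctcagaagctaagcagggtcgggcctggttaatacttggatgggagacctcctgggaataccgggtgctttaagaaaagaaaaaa

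Annotated ribosomal RNA genes, taken as a whole class, held 9 OLP A summits (0.0723%) and 4 OLP B summits (0.0511%), while they cover 0.00147% of the genome. All 4 OLP B summits had an OLP A peak within 500 bp. These genes were singled out after the values had been seen, and 5S genes have many similar copies, so the assignment of reads to them is uncertain. Small nuclear RNA genes, 0.00622% of the genome, held 2 OLP A summits (0.0161%) and 7 OLP B summits (0.0894%). Small nucleolar RNA genes, 0.00713% of the genome, held 0 and 1 (0.0128%).

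Peaks lay in and near genes less often than the genome as a whole. By the GENCODE annotation of the same build, 9642 OLP A summits (77.4%, interval 76.7 to 78.2) and 5894 OLP B summits (75.3%, interval 74.3 to 76.2) lay between genes, which make up 58.9% of the genome. Introns held 21.7% and 23.5% compared with 37.7% of the genome, and exons 0.755% and 0.984% compared with 3.38%. Within 2 kb of the TSS of a protein-coding transcript lay 217 OLP A summits (1.74%, interval 1.53 to 1.99) and 179 OLP B summits (2.29%, interval 1.98 to 2.64), against 5.71% of the genome. Peaks of both replicates were rarer still there, with 25 of 3378 (0.74%, interval 0.502 to 1.09). Single-copy peaks lay closer to the genome's own share, with 4.8% in OLP A (interval 3.62 to 6.34) and 5.97% in OLP B (interval 4.89 to 7.25). Between 15 kb upstream and 5 kb downstream lay 11.4% of OLP A and 11% of OLP B summits, against 20.6% of the genome.

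The authors' own annotation, which lists the nearest RefSeq TSS from 50 kb upstream to 5 kb downstream, gave no TSS for 9707 OLP A peaks (78%) and 6180 OLP B peaks (79%), a mean of 78.5% ± 0.704 (SD, n = 2). Peaks with no TSS listed were found again more often. In OLP A, 2804 of 9707 lay near an OLP B peak (28.9%, interval 28 to 29.8) against 574 of 2744 with a listed TSS (20.9%, interval 19.4 to 22.5). The odds ratio of a listed TSS was 0.651 (Fisher's exact test, adjusted p = 5e-17). In OLP B the shares were 44.1% and 34.1% (odds ratio 0.654, Fisher's exact test, adjusted p = 1.7e-13). Within 2 kb of a listed TSS, 14 of 121 OLP A peaks were found again (11.6%, interval 7.02 to 18.5). Element sequence varied in step, at 9.09% of OLP A peaks within 2 kb of a listed TSS and 59% of those with no TSS listed. In peaks of the element alone, the shares found again were 36.4% with a listed TSS and 41.1% without. Outside the element they were 8.58% and 11.2%.

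The peaks of both replicates nearest to a TSS were few and mixed. The nearest was 140 bp upstream of Vmn1r2, a vomeronasal receptor, with 12 tags in OLP A and 15 in OLP B, and was not called in iOL. The next was 300 bp upstream of Ilf2, which encodes a subunit of an RNA-binding complex (chr3:90279780-90279863). It had 8 tags and 19.4-fold enrichment in OLP A, 25 tags and 9.7-fold in OLP B, and 10 tags in iOL B. The third lay 456 bp upstream of Fbxo31, an F-box protein of a ubiquitin ligase, in an intron of the overlapping Gm20388, with 11 tags and 24.3-fold in OLP A, 9 tags and 9.01-fold in OLP B, and 11 tags in iOL B. A peak 484 bp upstream of 3830403N18Rik and the Padi4 peak completed the 5, and neither was called in iOL.

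Genes with a peak in their range numbered 2080 in OLP A and 1420 in OLP B. Of these, 671 had a peak in both replicates, which is 32.3% of the OLP A genes and 47.3% of the OLP B genes. For 497 of the 671 genes (74.1%) an OLP A peak listed for the gene lay within 500 bp of an OLP B peak, and for the other 174 it did not. Counting only peaks at most 15 kb upstream or 5 kb downstream, 222 genes had a peak in both. A single OLP A peak was the usual case, for 1638 of the 2080 genes (78.8%). As a background, 7.96% of 22238 protein-coding gene symbols of GENCODE had an OLP A peak, 5.47% an OLP B peak and 2.59% both.

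Genes with most OLP A peaks, among those with a peak in both replicates, included members of multigene families. Gm14346 had 10 OLP A peaks and 1 OLP B peak, of which 1 OLP A peak lay near an OLP B peak. Vmn2r121, a vomeronasal receptor, had 8 in each, with 3 OLP A peaks near an OLP B peak, 3 peaks in iOL A and 0 in iOL B. Ctsc, which encodes the lysosomal protease cathepsin C, had 7 OLP A and 2 OLP B peaks, with 6 OLP A peaks near an OLP B peak. Snord116, a cluster of small nucleolar RNAs, had 7 and 1. The other 6 of the 10 genes were Gm13238, Gm10487, Gm10033, Pisd-ps1, Olfr1154 and A1bg, with 5 or 6 OLP A peaks and 1 to 4 OLP B peaks. The last 2 of these 10 had 5 OLP A peaks, as did 6 more genes (Gm2933, Gm4836, 3110007F17Rik, Gm3706, Gm7609 and Vmn1r158), which had 1 or 2 OLP B peaks, and ties were ordered by the OLP B peaks and then by name. Olfr1154, an olfactory receptor, had the highest fold of the 10, at 31.6-fold in OLP A and 27-fold in OLP B. Reads can be split between copies of genes in such families, so these counts are uncertain.

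Few members of the gene lists by role had a peak, to be read beside the shares of all coding genes just given. Of 27 genes of gp130-Stat3 signalling, the cytokine pathway through the shared receptor gp130, 3 had an OLP A peak (11.1%), 1 an OLP B peak (3.7%) and 0 both. Among them were the receptor genes Cntfr and Il6st, with 7 tags each in OLP A, and the cytokine Il6, with 10 tags in OLP B. Of 29 importins and other nuclear transport genes, 0 had an OLP A peak and 1 an OLP B peak, Rangap1, which activates the Ran GTPase, with 24 tags and 5.82-fold enrichment 245 bp upstream of its TSS. Of 26 Klf and Sp factors, 3 had an OLP A peak (Klf2, Klf4 and Sp8, with 7 to 9 tags) and 0 an OLP B peak. Of 29 mitogen and thyroid hormone receptor genes, 2 had an OLP A peak (Egfr among them) and 1 an OLP B peak (Pdgfra), with 0 in both. Of 10 neuron markers 1 had a peak in OLP B only (Gap43), of 10 astrocyte markers 1 in OLP A only (Slc1a3), and of 10 microglia markers 0 in either.

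Among 37 genes of the oligodendrocyte lineage and myelin, 3 had an OLP A peak (8.11%), 5 an OLP B peak (13.5%) and 1 both. That gene was Mal, which encodes a proteolipid of myelin membranes. Its peak lay 15924 bp upstream of the TSS (chr2:127498305-127498498) and had 19 tags and 41.3-fold enrichment in OLP A, 14 tags and 15.8-fold in OLP B, 10 tags and 15.3-fold in iOL A, and 15 tags and 15.9-fold in iOL B. It was called in all 4 samples and all of its 32-base stretches were repeated. Nkx2-2, a transcription factor of the lineage, had 7 tags in OLP A only. Olig1, Pdgfra, Sox5 and Tcf7l2 had 14, 16, 10 and 14 tags in OLP B only, of which the Pdgfra peak was in repeated sequence (14.6-fold, 21638 bp upstream) and the other 3 were single-copy.

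Lists from the study itself were counted likewise, and since they were partly chosen on these samples their counts are not independent evidence. Of the 20 genes that the study listed as Klf6-regulated with a peak, 9 had an OLP A peak, 7 an OLP B peak and 4 both (Cntn4, Fbn2, Lars2 and Tgfa). The peaks of the replicates lay within 500 bp for 2 of these 4. Lars2, a mitochondrial leucyl-tRNA synthetase, had 2 peaks of 7 tags in OLP A and 1 of 12 tags in OLP B about 13 kb upstream. All 32-base stretches of these Lars2 peaks were repeated. Fbn2, which encodes fibrillin-2 of the extracellular matrix, had 9 tags in OLP A and 19 in OLP B at the place called in both. That place lay 45247 bp upstream of the TSS in OLP A. Its 32-base stretches were repeated in 94% of cases in OLP A and 96.6% in OLP B. For Cntn4 and Tgfa, a growth factor that binds the EGF receptor, the peaks of the replicates were at different places. Of 211 transcripts that depended on Klf6 in OLP by the study's RNA-seq, 13 had an OLP A peak (6.16%), 8 an OLP B peak (3.79%) and 5 both (2.37%). The highest of these 5 was upstream of Tm4sf1, a membrane protein of endothelial and other cells. It had 20 tags and 27.6-fold in OLP A and 17 tags and 19.1-fold in OLP B. This peak lay 45494 bp upstream of the TSS, and 86.1% of its 32-base stretches were repeated in OLP A and 100% in OLP B.

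Il6st, which encodes gp130, had 1 peak in OLP A and none in the other 3 lists. It lay between genes 8855 bp upstream of the TSS (chr13:113245313-113245468) and had 7 tags, the smallest number in the list, 12.2-fold enrichment and a score of 45.2. It was single-copy, and the core letters are not in it.
Il6st upstream peak: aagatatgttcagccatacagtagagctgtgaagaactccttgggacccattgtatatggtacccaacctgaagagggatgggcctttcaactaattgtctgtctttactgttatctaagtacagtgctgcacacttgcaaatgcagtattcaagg
Kpna1, which encodes the nuclear import receptor importin alpha 5, had no OLP peak and 1 peak in iOL A (48 tags, 8.42-fold, 1621 bp upstream of the TSS). Klf6 itself had no peak in any of the 4 lists.

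Peaks were denser on the X chromosome than on autosomes. OLP A had 9.95 peaks per Mb on X and 4.5 on autosomes, and OLP B 4.52 and 2.95. Ratios of X to autosomes were 2.21 in OLP A, 1.53 in OLP B, 2.1 in iOL A and 1.55 in iOL B, so they went by replicate letter. Element sequence covered 8.64% of X and 4.37% of the autosomes, and peaks in the element had ratios of 1.9 in OLP A and 1.87 in OLP B. Peaks outside the element had a ratio of 2.61 in OLP A and 1.12 in OLP B. Single-copy peaks went the other way. They numbered 20 on X against 938 on autosomes in OLP A, a ratio per Mb of 0.315, and 7 against 1551 in OLP B, a ratio of 0.0667. Single-copy stretches made up 51.2% of the genome stretches on X and 68.2% on autosomes. The sex of the animals is not given in the sources used here. Among autosomes, density was lowest on chromosome 11 in OLP A, with 2.75 peaks per Mb, and highest on chromosome 4, with 5.66. Chromosome Y, with 2.7 Mb of sequence, held 57 OLP A and 26 OLP B peaks.

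**Figure D5:**
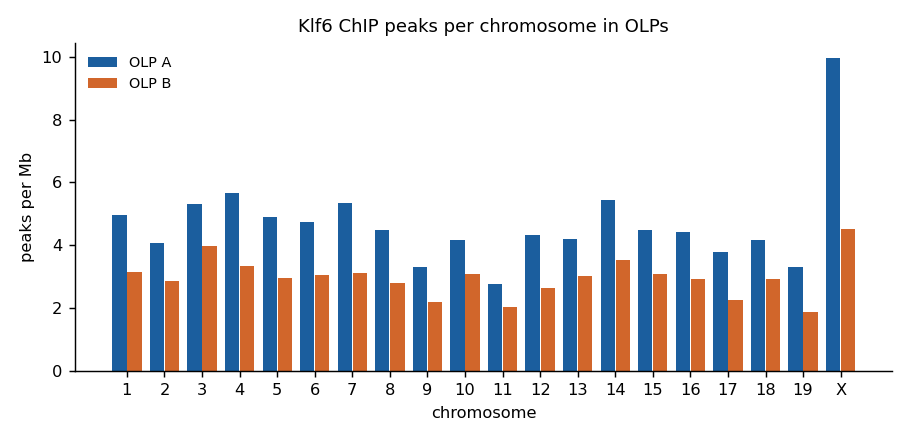
Peaks per Mb of sequence without gaps on each autosome and on X in OLP A (blue) and OLP B (orange). X stands above all autosomes, at 9.95 in OLP A and 4.52 in OLP B.

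OLP peaks that were found again were mostly called in iOL as well. Of the 3378 OLP A peaks near an OLP B peak, 2787 lay within 500 bp of a peak of iOL A or iOL B (82.5%, interval 81.2 to 83.7), against 2586 of the other 9073 (28.5%, interval 27.6 to 29.4). The odds ratio was 11.8 (Fisher's exact test, adjusted p at or under 1e-300). For OLP B the shares were 82.3% and 17%, an odds ratio of 22.7 (Fisher's exact test, adjusted p at or under 1e-300). Outside the element the OLP A shares were 71.6% and 17.3%. Peaks found again also had higher scores, with a median of 81.2 against 52.4 in OLP A and 64 against 46.3 in OLP B. The part of score in these shares was not tested. Both iOL lists held 1874 of the 3378 peaks (55.5%), and neither held 591 (17.5%). OLP A peaks lay near an iOL A peak in 36.6% of cases and near an iOL B peak in 28.1%, beside 27.1% near an OLP B peak. Bases within 500 bp of a peak were 0.452% of the genome for iOL A, 0.257% for iOL B and 0.349% for OLP B.

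OLP had 10139 ± 3269.7 peaks (SD, n = 2) and iOL 8001 ± 3145.2 (SD, n = 2), a difference of 2138 (exact permutation test, two-sided, p = 0.67, where 2 against 2 cannot go below 0.333, so that the test could not show a difference). By replicate letter the differences were 2226 for A and 2050 for B. Without OLP A the difference was -174 and without iOL B it was -86.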

How the data were processed

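Klf6 ChIP-seq was performed by the authors in 2 biological replicates each of OLP and iOL. Per the labels and methods, reads were base-called with CASAVA 1.8, filtered by quality with FASTX and aligned to mm9 with Bowtie2, and MACS called peaks in each ChIP sample against its input. The MACS version, read length and handling of reads with several matches or of duplicates are not given in the sources used here. The deposited lists give raw tag counts per peak, a score (-10 times log10 of the p-value), the fold enrichment as a linear ratio and a false discovery rate in percent. The authors added the nearest RefSeq TSS.

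From these files, peaks were joined when at most 500 bp separated them, the gap used by the study. Shares have 95% Wilson intervals. Fisher's exact tests were adjusted over 10 tests at a threshold of 0.05, and stages were compared by an exact permutation test over samples. Sequence was read from NCBIM37, the same build as mm9, on chromosomes 1 to 19, X and Y. Copies of 32-base stretches were counted on both strands, and the element is the union of ordered 32-base stretches and the sequence up to 1000 bp between them. Functions were tested on simulated data with known answers. Genes named were the 10 peaks of both replicates of largest fold, the 5 of most tags, the 5 nearest a TSS, the 5 of highest score in 1 replicate only, the 10 genes with most OLP A peaks, list members with peaks in both replicates, and Il6st, Kpna1 and Klf6. Other names are said to have been chosen after their values were seen, or are single-copy or list examples. Members and lists were chosen with earlier results of these data known. Calculations ran in Python 3.11.15 with scipy 1.17.1, pandas 2.3.3 and numpy 2.4.6, copies were counted with numba 0.67.0, and plots were drawn with matplotlib 3.10.9. A gap, tag, score, FDR, range or repeat limit was varied, each replicate was left out, and a fit blocked by replicate letter was made. The inputs have no peak list and were not analysed here. A few list members and 1 peak sequence are not reported here.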

Additional observations from a re-analysis of the deposited data

How the results depend on the processing

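The share of OLP A peaks near an OLP B peak (27.1%) was 24.9% with at least 1 shared base, 28.9% with a gap of 1000 bp, 45.2% with at least 10 tags in both lists, 28.3% and 25.1% at scores of at least 50 and 100 in both lists, 19.1% for peaks at most 15 kb upstream or 5 kb downstream, 28.9% with no TSS listed, 2.94% without repeated peaks and 10.2% without the element, an alternative chosen after seeing the data. The share of OLP B peaks (42%) was 39.6%, 43.7%, 28.6%, 56%, 56.9%, 29.7%, 44.1%, 2.11% and 15.6% under the same settings. Peaks with no TSS listed (78.5%) were 80% and 82% of those with scores of at least 50 and 100. Genes with peaks in both replicates (671) fell to 222 in that range, 58 within 5 kb, 387 with at least 10 tags and 413 at a score of at least 50. The cause was not tested, except that stricter limits leave fewer peaks. The OLP minus iOL number of peaks (2138) ranged from -174 (without OLP replicate A) to 4450 (without OLP replicate B) and was 4362 and -86 without iOL replicates A and B. Under limits on tags, score, FDR or distance from a TSS it lay between 73.5 and 2283. With the replicate letter as a block it was 2138 (exact sign flips, p = 0.5, the smallest that 2 pairs allow). The labels do not say that a letter marks a shared culture.

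For the core motif, the OLP A difference between peaks with and without a partner (-0.83 percentage points) was 0.134 within 50 bases of the summit, -0.788 over the whole peak, where it passed the threshold (adjusted p = 0.035, Fisher's exact test), 0.0133 in the element and 4.02 outside it. For OLP B (0.15) it was 0.513 within 50 bases, -0.192 over the whole peak, -0.197 in the element and 6.83 outside it, so the largest moves of both replicates were outside the element. The classes in and outside the element, and of score, were chosen after seeing the data, and no p is given for the motif in them. Score, repeated sequence, TSS and iOL comparisons of OLP A kept their direction and side of the threshold under every alternative tried. Of those of OLP B, only the TSS comparison in the element missed it. Most peaks rest on 7 to 14 tags, and a place with no peak is known only to have missed the limits of the caller.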
